A study of Mus musculus with 27 samples.

Results

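NF-kB is a family of transcription factors that tumour necrosis factor (TNF) and interleukin-1 switch on, and the 49 mouse genes described here are its 5 subunits together with genes that TNF induces. Members were taken from a list of gene symbols covering subunits, feedback inhibitors, adaptors and survival factors, cytokines and adhesion molecules, transcription factors, signal attenuators, growth and stress genes and 2 enzymes, and all 49 were found among the 52636 gene identifiers of the count tables. The list was drawn up without neuronal immediate-early, clock and glucocorticoid genes, but its members are not free of these programmes. Bhlhe40 also takes part in the clock, and several other members are also induced by neuronal activity. RNA was sequenced from frontal cortex and striatum of mice of the 129S1 background aged about 2.5 months. Igf2enh-/- mice carry a homozygous deletion of 4.9 kb on chromosome 7, in the intergenic stretch between H19 and Igf2, with a single loxP site left in place. The allele was made by targeting embryonic stem cells and is constitutive, so an effect within these regions and one from elsewhere in the body cannot be told apart. Frontal cortex came from 6 wild-type and 6 Igf2enh-/- mice, with 3 females and 3 males of each genotype, and striatum from 7 wild-type (3 females, 4 males) and 8 Igf2enh-/- mice (4 females, 4 males). The question was how the levels of these genes differed between the genotypes in each region.

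In resting cells, dimers of Rel, Rela, Relb and the products of Nfkb1 and Nfkb2 are held in the cytoplasm by inhibitors such as Nfkbia (IkB-alpha). When TNF binds its receptor, adaptors and ubiquitin ligases such as Ripk1, Traf2 and Birc2 activate the IkB kinase, Nfkbia is degraded and the dimers enter the nucleus, where they induce cytokines, survival factors and their own inhibitors, Nfkbia and Tnfaip3 (A20) among them. In brain, Nfkb1 and Rela are expressed by neurons and glia, whereas Tnf, Il1b and Ccl2 come mainly from activated glia and vessels. Several genes that TNF induces are also induced in neurons by synaptic activity. The cyclic AMP response element (CRE), bound by the factor CREB, is a well-known activity-responsive sequence.

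Sequences upstream of the start site were read for the 39 members that have a promoter in the RefSeq table of GRCm38.p6, the build to which the reads had been aligned. The consensus for NF-kB dimers was looked for on both strands of the 250 bases before each start, in 47 member windows. It occurred for 12 of the 39 members (30.8%) and for 8.23% of all 27025 genes of the table. The 12 were Cxcl1, Ier3, Il6, Irf1, Maff, Nfkb2, Nfkbia, Nfkbie, Rel, Sod2, Tnfaip3 and Tnip1. The CRE, TGACGTCA, occurred for 6 of 39 members (15.4%) and 1.77% of all genes, and the 6 were Birc2, Btg2, Ccnl1, Dusp1, Maff and Plk2. Stretches around the match are printed 5′ to 3′ on the strand of the gene, with the matched bases in capitals. The first 6 show the NF-kB consensus in subunits, inhibitors and cytokines. The last 3 show the CRE in Dusp1, Btg2 and Plk2, the 3 that were lower in Igf2enh-/- frontal cortex with an unadjusted p under 0.05 (edgeR). The other members with a CRE are not printed. Of those, Birc2 and Ccnl1 had log2 fold changes (Igf2enh-/- over wild-type) of -0.0023 and -0.06 in frontal cortex, and Maff was not tested. In Cxcl1, Rel and Tnip1 the capitals cover overlapping matches of the consensus.
Nfkbia, chr12:55492648-55492701, minus strand: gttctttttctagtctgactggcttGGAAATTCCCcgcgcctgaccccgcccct
Rel, chr11:23771026-23771086, minus strand: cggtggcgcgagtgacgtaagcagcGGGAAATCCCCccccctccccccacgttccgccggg
Tnfaip3, chr10:19015411-19015560, minus strand: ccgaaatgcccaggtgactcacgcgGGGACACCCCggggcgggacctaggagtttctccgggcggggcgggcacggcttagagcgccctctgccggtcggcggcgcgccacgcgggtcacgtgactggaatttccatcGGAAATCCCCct
Tnip1, chr11:54962962-54963023, minus strand: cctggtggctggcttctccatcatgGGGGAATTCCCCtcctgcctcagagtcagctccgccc
Il6, chr5:30013045-30013104, plus strand: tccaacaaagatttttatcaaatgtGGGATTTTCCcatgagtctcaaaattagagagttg
Cxcl1, chr5:90891149-90891209, plus strand: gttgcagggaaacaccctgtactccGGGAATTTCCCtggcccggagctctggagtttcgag
Dusp1, chr17:26508583-26508640, minus strand: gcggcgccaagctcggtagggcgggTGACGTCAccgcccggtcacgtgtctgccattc
Btg2, chr1:134079289-134079346, minus strand: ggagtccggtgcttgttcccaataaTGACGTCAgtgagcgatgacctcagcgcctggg
Plk2, chr13:110394957-110395014, plus strand: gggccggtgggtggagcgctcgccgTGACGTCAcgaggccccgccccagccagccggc

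Library totals ran from 23686945 to 33926904 counts, so that a level of 1 CPM (counts scaled to library size by the trimmed mean of M-values, TMM) stood for 23.7 to 33.9 counts. Libraries are named by the number that opens their label. The labels do not say which libraries of the regions came from the same mouse. Slc17a7, the glutamate transporter of cortical projection neurons, averaged 1562 ± 49.4 CPM (SD, n = 6) in wild-type frontal cortex, and in striatum it ran from 13.8 to 758 CPM in wild-type and from 99.6 to 564.5 CPM in Igf2enh-/- libraries. Its highest striatal values were in the wild-type libraries 20 (758 CPM) and 16 (567.7 CPM). Striatal library 15, from an Igf2enh-/- mouse, held 3123 CPM of the choroid plexus gene Ttr where the other striatal libraries held at most 107.6 CPM. Cells of a type being fewer and their RNA being less cannot be told apart in bulk tissue.

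The cytokines Tnf, Il6, Il1b, Ccl2 and Cxcl1 were close to the limit of detection in both genotypes. Tnf had 0 to 2 counts in every library, Il6 0 to 2, Ccl2 0 to 4 and Cxcl1 0 to 5, where 3 counts correspond to 0.0884 to 0.127 CPM. Il1b was counted 4 to 12 times in wild-type and 5 to 11 times in Igf2enh-/- frontal cortex libraries, and 0 to 3 times in striatal libraries of either genotype. These 5 genes were not tested, and a small difference between genotypes could not have been seen at this depth. Another 4 members missed the filter, which asked each library of the region for 1 CPM or more. Bcl3, a nuclear IkB protein, had 2 to 8 counts in wild-type and 6 to 17 in Igf2enh-/- frontal cortex, and 0 to 8 and 5 to 10 in striatum. Traf1, an adaptor of the TNF receptor, had 6 to 16 and 8 to 29 counts in frontal cortex and 7 to 37 and 20 to 49 in striatum. Ranges of the genotypes overlapped for both. The stress factor Atf3 had 5 to 19 and 6 to 13 counts in frontal cortex and 8 to 38 and 10 to 23 in striatum. Maff, a small Maf protein, had 10 to 37 and 10 to 34 counts in frontal cortex and 6 to 34 and 11 to 24 in striatum. These 9 members were not tested in either region, and Nfkbie and Socs3 passed the filter in frontal cortex but not in striatum.

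**Figure D1:**
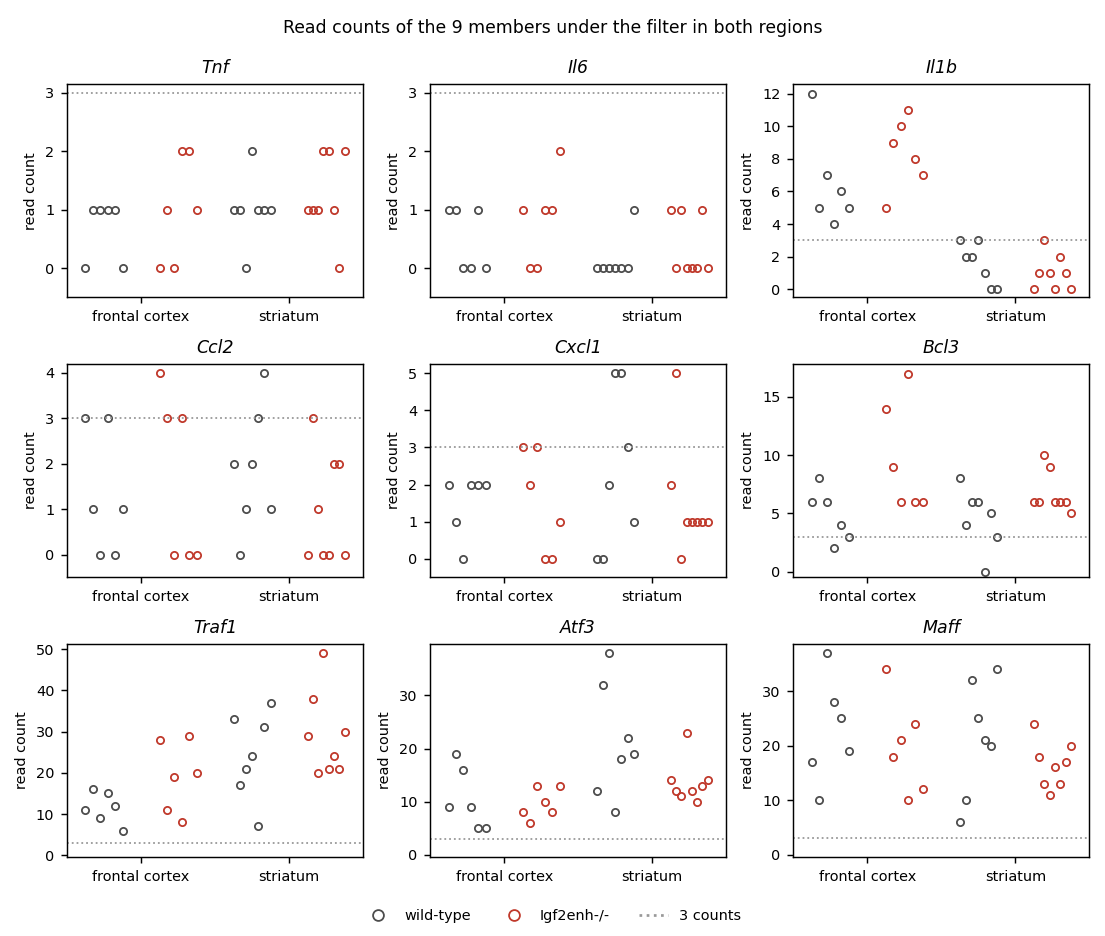
Read counts (y axis, linear) of the 9 members under the filter in both regions, 1 open circle per library, wild-type in grey and Igf2enh-/- in red, with a dotted line at 3 counts. Tnf and Il6 lie under the line in every library, and Il1b lies above it in frontal cortex and at or under it in striatum.

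Of the 40 members tested in frontal cortex, 0 had an adjusted p under 0.05 for genotype (edgeR quasi-likelihood test, genotype and sex as terms), where 0.380% of all 13936 genes tested did. In striatum 0 of 38 had, against 0.0360% of 13875 genes. The members nevertheless lay mostly on 1 side. The log2 fold change, Igf2enh-/- over wild-type, was under 0 for 29 of 40 members in frontal cortex, where it was for 49.6% of all genes tested, and for 31 of 38 in striatum, against 49.8%. An unadjusted p under 0.05 with a lower level in Igf2enh-/- mice was found for 16 of the 40 members in frontal cortex (6.60% of all genes) and for 15 of the 38 in striatum (5.10%). In the other direction it was 2 of 40 (6.87% of all genes) and 2 of 38 (4.94%). The same shares of all genes stand beside the counts by role that are given below. The median log2 fold change of the members was -0.15 in frontal cortex and -0.16 in striatum, beside 0.0007 and 0.0004 for all genes. The genotypes overlapped for every member tested, with 0 members wholly lower in Igf2enh-/- libraries (0.682% of genes in frontal cortex, 0.108% in striatum) and 0 wholly higher (0.610% and 0.0937%). The members were put together with earlier results of these data known, so these counts are a description.

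The number of calls depended on the test and on single libraries. In frontal cortex edgeR's likelihood ratio test called 6 members (Ier5, Tiparp, Mcl1, Bhlhe40, Inhba, Klf10), where it called 1.66% of all genes. DESeq2 called 6 (Ier5, Tiparp, Mcl1, Inhba, Plk2, Klf10), against 1.77% of all genes, and limma-voom 0. Without Igf2enh-/- library 1, in which 10 of the 40 members had their highest value, the quasi-likelihood test called 9 (Tiparp, Mcl1, Bhlhe40, Klf2, Gadd45b, Nfkbia, Inhba, Plk2, Klf10), against 0.709% of all genes. It called 2 without library 7 (0.601% of all genes), 1 without library 2 (0.380%) and 1 without library 5 (0.315%), and with no filter on low counts it called 14 of 49 (1.39% of 33060 genes). In striatum the likelihood ratio test called Tiparp, Klf2 and Dusp1 (0.404% of all genes), DESeq2 called these and Mcl1 (0.807%), and the quasi-likelihood test called 0 whichever library was left out.

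**Figure D2:**
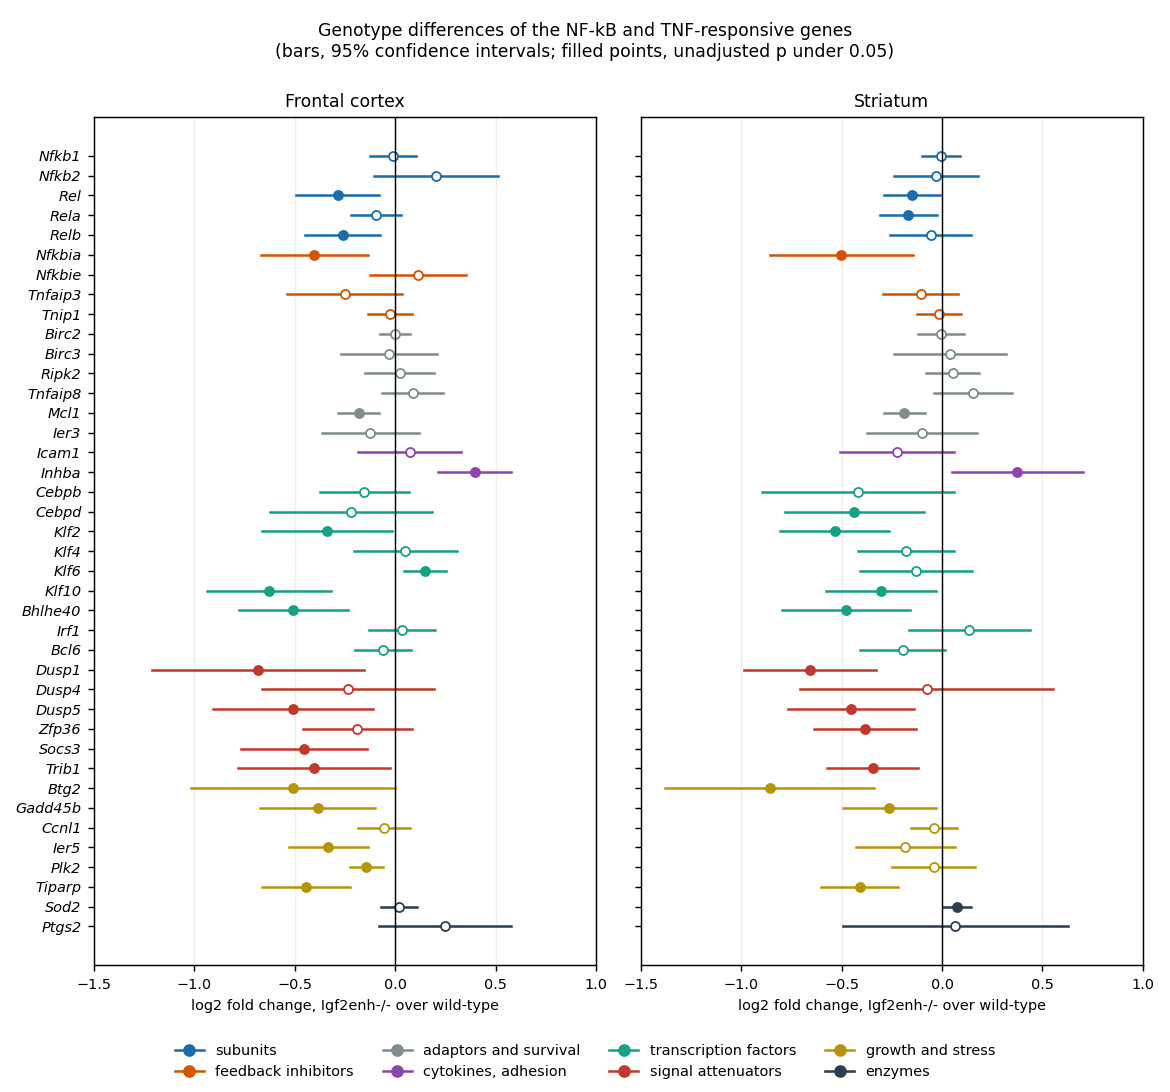
Log2 fold change of Igf2enh-/- over wild-type (x axis) for the 40 members tested in frontal cortex (left) and the 38 tested in striatum (right), coloured by role, with 95% confidence intervals as bars and filled points for an unadjusted p under 0.05. Most filled points lie left of 0 in both regions, with Inhba and Klf6 to the right in frontal cortex and Inhba and Sod2 in striatum, and no member passed an adjusted p of 0.05.

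The subunits were all tested in both regions. Of the 5, 2 had an unadjusted p under 0.05 in each region, Rel and Relb in frontal cortex and Rel and Rela in striatum, each lower in Igf2enh-/- mice. Nfkb1, the precursor of p50, ranged from 17.0 to 19.7 CPM (median 18.6) in wild-type and from 16.6 to 20.1 CPM (median 17.8) in Igf2enh-/- frontal cortex. In striatum it ranged from 20.45 to 23.1 CPM (median 21.7) and from 20.6 to 24.8 CPM (median 21.4). The ranges covered each other, and the log2 fold changes were -0.01 (95% interval -0.13 to 0.10) and -0.01 (-0.10 to 0.09), so that a difference of more than about 0.13 on the log2 scale lay outside both intervals.

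Rel, the c-Rel subunit (ENSMUSG00000020275), lay between 5.81 and 8.07 CPM (median 7.03) in wild-type and between 4.74 and 6.74 CPM (median 5.62) in Igf2enh-/- frontal cortex. Of the Igf2enh-/- libraries 4 were below every wild-type library and 3 of the wild-type libraries were above every Igf2enh-/- library. For Rel this was a log2 fold change of -0.29 (standard error, SE, 0.0959, unadjusted p = 0.00940, adjusted p = 0.210 in edgeR), and the exact permutation test gave p = 0.0325. In striatum Rel ranged from 7.18 to 9.16 CPM (median 7.72) and from 5.99 to 8.70 CPM (median 7.21), and the log2 fold change was -0.15 (SE 0.0649, unadjusted p = 0.0367, adjusted p = 0.462 in edgeR). There 4 Igf2enh-/- libraries were under the wild-type range, and the exact permutation p was 0.100.

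Rela (p65) ranged from 16.5 to 19.3 CPM (median 18.5) in wild-type and from 15.3 to 19.6 CPM (median 16.7) in Igf2enh-/- frontal cortex, with a log2 fold change of -0.10 (95% interval -0.22 to 0.03). Its striatal ranges were 17.5 to 23.5 CPM (median 20.9) and 15.7 to 20.7 CPM (median 18.9), and 4 of the 7 wild-type libraries lay above all 8 Igf2enh-/- libraries. The striatal log2 fold change was -0.17 (SE 0.0667, unadjusted p = 0.0241, adjusted p = 0.427 in edgeR). Relb, the partner of p52, ranged from 4.02 to 6.23 CPM (median 5.14) and from 3.82 to 4.74 CPM (median 4.26) in frontal cortex. Above every Igf2enh-/- library lay 5 of the 6 wild-type libraries, for a log2 fold change of -0.26 (SE 0.0875, unadjusted p = 0.00963, adjusted p = 0.213 in edgeR). In striatum Relb lay between 3.59 and 5.24 CPM (median 4.03) and between 3.40 and 4.497 CPM (median 4.12), with a log2 fold change of -0.06 (95% interval -0.26 to 0.15). Nfkb2, the precursor of p52, was the subunit with a value above 0, at 0.20 in frontal cortex (95% interval -0.11 to 0.51), where it ranged from 1.84 to 3.06 CPM (median 2.12) in wild-type and from 2.14 to 3.22 CPM (median 2.53) in Igf2enh-/- libraries. In striatum it ranged from 2.47 to 3.60 CPM (median 2.79) and from 2.61 to 3.501 CPM (median 2.83), a log2 fold change of -0.03. Its exons overlap those of Psd on the other strand, so without a stated strand setting reads of the pair cannot be told apart.

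Among the feedback inhibitors Nfkbia had the largest difference, and it was the only one of 4 tested in frontal cortex and of 3 tested in striatum with an unadjusted p under 0.05. In frontal cortex Nfkbia (ENSMUSG00000021025) lay between 16.6 and 29.0 CPM (median 25.5) in wild-type and between 14.9 and 22.7 CPM (median 17.9) in Igf2enh-/- libraries. In striatum it lay between 17.2 and 37.0 CPM (median 24.6) and between 12.7 and 22.2 CPM (median 18.0). In each region 4 wild-type libraries were above every Igf2enh-/- library. The remaining wild-type libraries of frontal cortex, both from females, were at 16.6 and 20.45 CPM. Those of striatum were at 17.2 and 18.3 CPM, from females, and at 21.1 CPM, from a male (library 26). Log2 fold changes were -0.40 in frontal cortex (SE 0.124, unadjusted p = 0.00577, adjusted p = 0.179 in edgeR) and -0.50 in striatum (SE 0.167, unadjusted p = 0.00889, adjusted p = 0.342 in edgeR). Without striatal library 20, which held the highest value of 37.0 CPM, the latter was -0.41.

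Tnfaip3 (A20), the ubiquitin-editing inhibitor whose upstream sequence holds the NF-kB consensus at 2 places, ranged from 5.58 to 8.85 CPM (median 7.05) and from 4.46 to 7.08 CPM (median 6.42) in frontal cortex. In striatum it ranged from 4.88 to 7.41 CPM (median 6.89) and from 5.08 to 7.36 CPM (median 6.03). In frontal cortex 3 wild-type libraries lay above and 2 Igf2enh-/- libraries below the range of the other genotype, and in striatum 1 wild-type library lay on either side of the Igf2enh-/- range. Log2 fold changes were -0.25 (95% interval -0.54 to 0.03) and -0.11 (-0.29 to 0.08). Tnip1, which binds A20, had log2 fold changes of -0.03 (95% interval -0.14 to 0.08) and -0.01 (-0.12 to 0.10). Nfkbie (IkB-epsilon) was at 2.22 ± 0.203 and 2.41 ± 0.345 CPM (SD, n = 6 each) in frontal cortex, with a log2 fold change of 0.12 (95% interval -0.12 to 0.35).

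**Figure D3:**
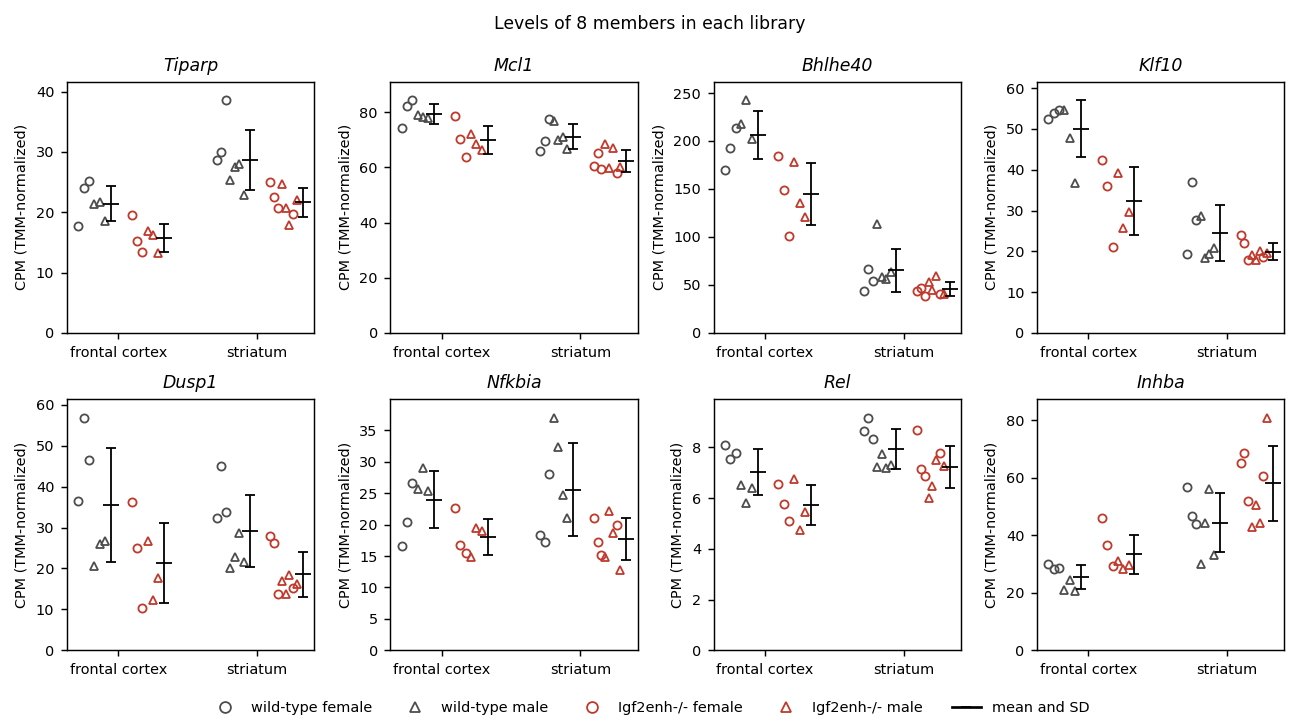
TMM-normalized CPM (y axis, linear, from 0) of 8 members in each library, females as circles and males as triangles, wild-type in grey and Igf2enh-/- in red, with the mean and SD beside each group. Nfkbia lies between 16.6 and 29.0 CPM in wild-type and 14.9 and 22.7 CPM in Igf2enh-/- frontal cortex, Inhba is placed higher in Igf2enh-/- groups, and the groups overlap in all panels.

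The signal attenuators had the lowest median of the roles in frontal cortex, a log2 fold change of -0.43 over 6 members tested, all under 0 and 4 with an unadjusted p under 0.05. In striatum the median was -0.38 over 5, all under 0 and 4 with an unadjusted p under 0.05. Dusp1, the phosphatase that switches off p38 and JNK kinases, ranged from 20.2 to 44.9 CPM (median 28.6) in wild-type and from 13.7 to 27.9 CPM (median 16.7) in Igf2enh-/- striatum. Of the 8 Igf2enh-/- libraries 6 lay under the wild-type range. This gave a log2 fold change of -0.66 (SE 0.153, unadjusted p = 0.000664, adjusted p = 0.159 in edgeR). In frontal cortex it was -0.68 with an SE of 0.246, as wild-type libraries spread from 20.6 to 56.8 CPM (median 31.5) and Igf2enh-/- libraries from 10.4 to 36.2 CPM (median 21.4).

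Zfp36 (tristetraprolin), which destabilises cytokine mRNAs, ranged in striatum from 2.97 to 3.83 CPM (median 3.52) in wild-type and from 1.77 to 3.36 CPM (median 2.74) in Igf2enh-/- libraries, with 5 of the 8 under the wild-type range. Its log2 fold change there was -0.38 (SE 0.119, unadjusted p = 0.00586, adjusted p = 0.313 in edgeR) and -0.19 in frontal cortex (95% interval -0.46 to 0.08). Trib1, a pseudokinase, ranged from 9.19 to 16.0 CPM (median 12.9) and from 8.56 to 11.8 CPM (median 10.7) in striatum. All but 1 of its 7 wild-type libraries exceeded every Igf2enh-/- library, and the log2 fold change was -0.35 (SE 0.106, unadjusted p = 0.00529, adjusted p = 0.307 in edgeR). Dusp5, a phosphatase of nuclear ERK, ranged from 5.40 to 9.12 CPM (median 7.00) and from 4.30 to 7.08 CPM (median 5.05) there. Its log2 fold change was -0.45 (SE 0.147, unadjusted p = 0.00778, adjusted p = 0.331 in edgeR), with 5 of 8 Igf2enh-/- libraries under the wild-type range. In frontal cortex Trib1 and Dusp5 had log2 fold changes of -0.41 and -0.51 with SEs of 0.176 and 0.186.

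Socs3, which inhibits JAK kinases, was tested in frontal cortex alone, where it lay between 2.97 and 4.58 CPM (median 3.86) in wild-type and between 2.15 and 3.56 CPM (median 2.71) in Igf2enh-/- libraries. Of the wild-type libraries 4 were above every Igf2enh-/- library, and the log2 fold change was -0.45 (SE 0.147, unadjusted p = 0.00798, adjusted p = 0.198 in edgeR). In striatum, where it did not pass the filter, wild-type libraries held 0.623 to 2.86 CPM and Igf2enh-/- libraries 0.944 to 1.62 CPM. Dusp4 spread widely in both genotypes, and its log2 fold changes of -0.23 and -0.08 had intervals from -0.66 to 0.19 and from -0.71 to 0.55.

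Of the transcription factors 9 of 11 were tested. In frontal cortex Klf10, Bhlhe40 and Klf2 had an unadjusted p under 0.05 and a lower level in Igf2enh-/- mice and Klf6 a higher one, and in striatum Klf2, Klf10, Bhlhe40 and Cebpd had one, all lower. Klf10, a Kruppel-like repressor also known as TIEG1, ranged from 36.8 to 54.8 CPM (median 53.1) in wild-type and from 21.0 to 42.4 CPM (median 32.8) in Igf2enh-/- frontal cortex. The lowest wild-type library, 12, was the only one within the Igf2enh-/- range. Klf10 thus had a log2 fold change of -0.63 (SE 0.145, unadjusted p = 0.000651, adjusted p = 0.0741 in edgeR). In striatum Klf10 averaged 24.5 ± 6.94 CPM (SD, n = 7) and 19.9 ± 2.10 CPM (SD, n = 8), and its log2 fold change of -0.30 became -0.19 without wild-type library 16, which held 37.1 CPM.

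Bhlhe40 (DEC1), a repressor that also takes part in the clock, ranged from 169.5 to 242 CPM (median 208) in wild-type and from 101 to 184 CPM (median 142) in Igf2enh-/- frontal cortex. All but 1 of the 6 wild-type libraries exceeded every Igf2enh-/- library, and the log2 fold change was -0.51 (SE 0.126, unadjusted p = 0.00121, adjusted p = 0.0940 in edgeR). In striatum it lay between 43.9 and 114 CPM (median 58.0) and between 38.6 and 59.2 CPM (median 43.8), with a log2 fold change of -0.48 (SE 0.148, unadjusted p = 0.00575, adjusted p = 0.313 in edgeR). The value of 114 CPM was that of library 20, the library of highest Slc17a7, and without it the log2 fold change of Bhlhe40 was -0.32 (unadjusted p = 0.00491, adjusted p = 0.264 in edgeR). A part of cortical tissue in that difference was not tested. Exons of Bhlhe40 overlap 0610040F04Rik on the other strand.

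Klf2, a factor of vessels and resting lymphocytes, ranged in striatum from 5.05 to 9.63 CPM (median 6.36) in wild-type and from 3.80 to 7.42 CPM (median 4.49) in Igf2enh-/- libraries. Of the 8 Igf2enh-/- libraries 5 were under the wild-type range, and the log2 fold change was -0.53 (SE 0.127, unadjusted p = 0.000773, adjusted p = 0.173 in edgeR). In frontal cortex it was -0.34 (SE 0.152), and Igf2enh-/- library 1 held the highest value of all 12 libraries, 10.8 CPM. Klf6 went the other way in frontal cortex, with 55.9 to 70.1 CPM (median 65.9) in wild-type and 63.2 to 77.9 CPM (median 71.4) in Igf2enh-/- libraries. Its log2 fold change was 0.15 (SE 0.0479, unadjusted p = 0.00775, adjusted p = 0.195 in edgeR), and in striatum it was -0.13 (95% interval -0.41 to 0.15).

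The remaining factors were closer to 0 or less certain. Cebpd, an acute-phase factor, had a log2 fold change of -0.44 in striatum (SE 0.162, unadjusted p = 0.0164, adjusted p = 0.386 in edgeR) and -0.22 in frontal cortex (95% interval -0.62 to 0.18). Cebpb had -0.15 and -0.42, with intervals from -0.37 to 0.07 and from -0.90 to 0.06. Irf1, the interferon regulatory factor, had 0.03 (95% interval -0.13 to 0.20) and 0.14 (-0.17 to 0.44). Klf4 had 0.05 and -0.18, and the repressor Bcl6 -0.06 and -0.20, all 4 with intervals that include 0.

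All 6 growth and stress genes were under 0 in both regions, with medians of -0.36 and -0.22. In frontal cortex 5 of the 6 had an unadjusted p under 0.05 and in striatum 3 (Tiparp, Btg2, Gadd45b). Tiparp, a poly(ADP-ribose) polymerase also induced by the aryl hydrocarbon receptor (ENSMUSG00000034640, chromosome 3), had the smallest p of all members in striatum. There it lay between 22.8 and 38.5 CPM (median 27.9) in wild-type and between 17.9 and 25.0 CPM (median 21.4) in Igf2enh-/- libraries, with 6 of 8 Igf2enh-/- libraries under the wild-type range and 6 of 7 wild-type libraries above the Igf2enh-/- range. Its log2 fold change was -0.41 (SE 0.0899, unadjusted p = 0.000392, adjusted p = 0.135 in edgeR), and the exact permutation p was 0.00124. In frontal cortex it ranged from 17.7 to 25.1 CPM (median 21.6) and from 13.2 to 19.5 CPM (median 15.7), and 5 of 6 Igf2enh-/- libraries lay under the wild-type range. The log2 fold change there was -0.45 (SE 0.103, unadjusted p = 0.000648, adjusted p = 0.0741 in edgeR), and the exact permutation p was 0.00866. Exons of Tiparp overlap 4931440P22Rik on the other strand.

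Btg2, an antiproliferative gene induced by p53 and by neuronal activity, had the largest striatal fold change, -0.86 (SE 0.244, unadjusted p = 0.00312, adjusted p = 0.274 in edgeR). Its wild-type libraries spread from 6.68 to 31.4 CPM (median 14.9) and its Igf2enh-/- libraries from 6.21 to 11.4 CPM (median 9.04), and 5 of the 7 wild-type libraries were above the Igf2enh-/- range. Without wild-type library 16, which held 31.4 CPM, the value was -0.65 (adjusted p = 0.4003 in edgeR). In frontal cortex it was -0.51 with an interval from -1.02 to -0.0033. Ier5, an immediate-early gene tied to heat shock factor, ranged from 107 to 132 CPM (median 114) in wild-type and from 75.7 to 124 CPM (median 89.7) in Igf2enh-/- frontal cortex. There 5 of 6 Igf2enh-/- libraries were under the wild-type range, and the log2 fold change was -0.33 (SE 0.0914, unadjusted p = 0.00256, adjusted p = 0.134 in edgeR). In striatum it was -0.18 (95% interval -0.43 to 0.07).

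Plk2, a polo-like kinase of active synapses, differed by less but varied little between frontal cortex libraries, which ran from 197 to 220 CPM (median 209) in wild-type and from 174 to 204 CPM (median 188) in Igf2enh-/- mice. Of the 6 Igf2enh-/- libraries 5 were under the wild-type range, with a log2 fold change of -0.14 (SE 0.0376, unadjusted p = 0.00179, adjusted p = 0.113 in edgeR). In striatum it was -0.04 (95% interval -0.25 to 0.16). Gadd45b, a stress sensor, had -0.39 in frontal cortex and -0.26 in striatum, with SEs of 0.133 and 0.108. Ccnl1, a splicing-associated cyclin, had -0.06 and -0.04, with intervals within 0.19 of 0.

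Of the adaptors and survival factors, Mcl1 alone among 6 tested had an unadjusted p under 0.05, in both regions. Mcl1, an anti-apoptotic relative of Bcl2, lay between 74.3 and 84.3 CPM (median 78.7) in wild-type and between 63.7 and 78.5 CPM (median 69.5) in Igf2enh-/- frontal cortex, with 5 of 6 Igf2enh-/- libraries under the wild-type range. In striatum it lay between 66.1 and 77.6 CPM (median 70.1) and between 57.9 and 68.4 CPM (median 60.4), with 6 of 8 under that range. Log2 fold changes were -0.18 (SE 0.0475, unadjusted p = 0.00172, adjusted p = 0.111 in edgeR) and -0.19 (SE 0.0471, unadjusted p = 0.00120, adjusted p = 0.188 in edgeR), and exact permutation p were 0.00866 and 0.00218.

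The ubiquitin ligase Birc2 (cIAP1) had log2 fold changes of -0.0023 and -0.0039, with intervals from -0.08 to 0.07 in frontal cortex and from -0.12 to 0.11 in striatum. Its relative Birc3 (cIAP2) had -0.03 and 0.04 with wider intervals, from -0.27 to 0.21 and from -0.24 to 0.32. Ripk2, the kinase of NOD receptors, had 0.02 and 0.05, Tnfaip8 0.09 and 0.15, and the stress-induced survival gene Ier3 -0.12 and -0.10, none with an unadjusted p under 0.05.

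Only Inhba and Icam1 of the 7 cytokines and adhesion molecules passed the filter. Inhba, which encodes the activin A subunit, was the member of smallest p in frontal cortex and the only one with an unadjusted p under 0.05 and a higher level in Igf2enh-/- mice in both regions. In frontal cortex it ranged from 20.7 to 30.2 CPM (median 26.3) in wild-type and from 28.4 to 46.0 CPM (median 30.4) in Igf2enh-/- libraries. Of the Igf2enh-/- libraries 3 were above every wild-type library and 4 of the wild-type libraries were below every Igf2enh-/- library. The log2 fold change was 0.40 (SE 0.0843, unadjusted p = 0.000330, adjusted p = 0.0604 in edgeR). Without library 1, which held 46.0 CPM, it was 0.32 (adjusted p = 0.0474 in edgeR), and without library 5 it was 0.47 (adjusted p = 0.0104 in edgeR). In striatum wild-type libraries ran from 30.1 to 56.8 CPM (median 44.2) and Igf2enh-/- libraries from 42.9 to 80.9 CPM (median 56.3), with a log2 fold change of 0.38 (SE 0.153, unadjusted p = 0.0267, adjusted p = 0.438 in edgeR). Icam1, the adhesion molecule of activated endothelium, had 0.07 (95% interval -0.19 to 0.33) and -0.22 (-0.51 to 0.06).

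Of the enzymes, mitochondrial superoxide dismutase Sod2 had log2 fold changes of 0.02 (95% interval -0.07 to 0.11) and 0.08 (0.01 to 0.15; unadjusted p = 0.0351, adjusted p = 0.456 in edgeR), and 5 of 8 striatal Igf2enh-/- libraries were above the wild-type range. Prostaglandin synthase Ptgs2 had 0.25 (95% interval -0.08 to 0.58) and 0.07 (-0.50 to 0.63), and its highest value in frontal cortex, 31.1 CPM, was in Igf2enh-/- library 1.

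Libraries of 1 group differed in how many members were high or low together. In frontal cortex the median deviation of a library from the regional mean of each member, on the log2(CPM + 0.5) scale, ran from 0.0013 to 0.17 in wild-type and from -0.19 to 0.15 in Igf2enh-/- libraries. Igf2enh-/- library 5 held the lowest value of 15 of the 40 members and library 1 the highest of 10, so the genotype was not the only split. In striatum the deviations ran from 0.0004 to 0.21 in wild-type and from -0.15 to 0.03 in Igf2enh-/- libraries. Wild-type libraries 16 and 20 held the highest value of 13 and 8 of the 38 members. Without library 16 the members with an unadjusted p under 0.05 and a lower level numbered 12 in striatum, and without library 20 they numbered 13, while without library 1 they numbered 20 in frontal cortex and without library 5 13.

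**Figure D4:**
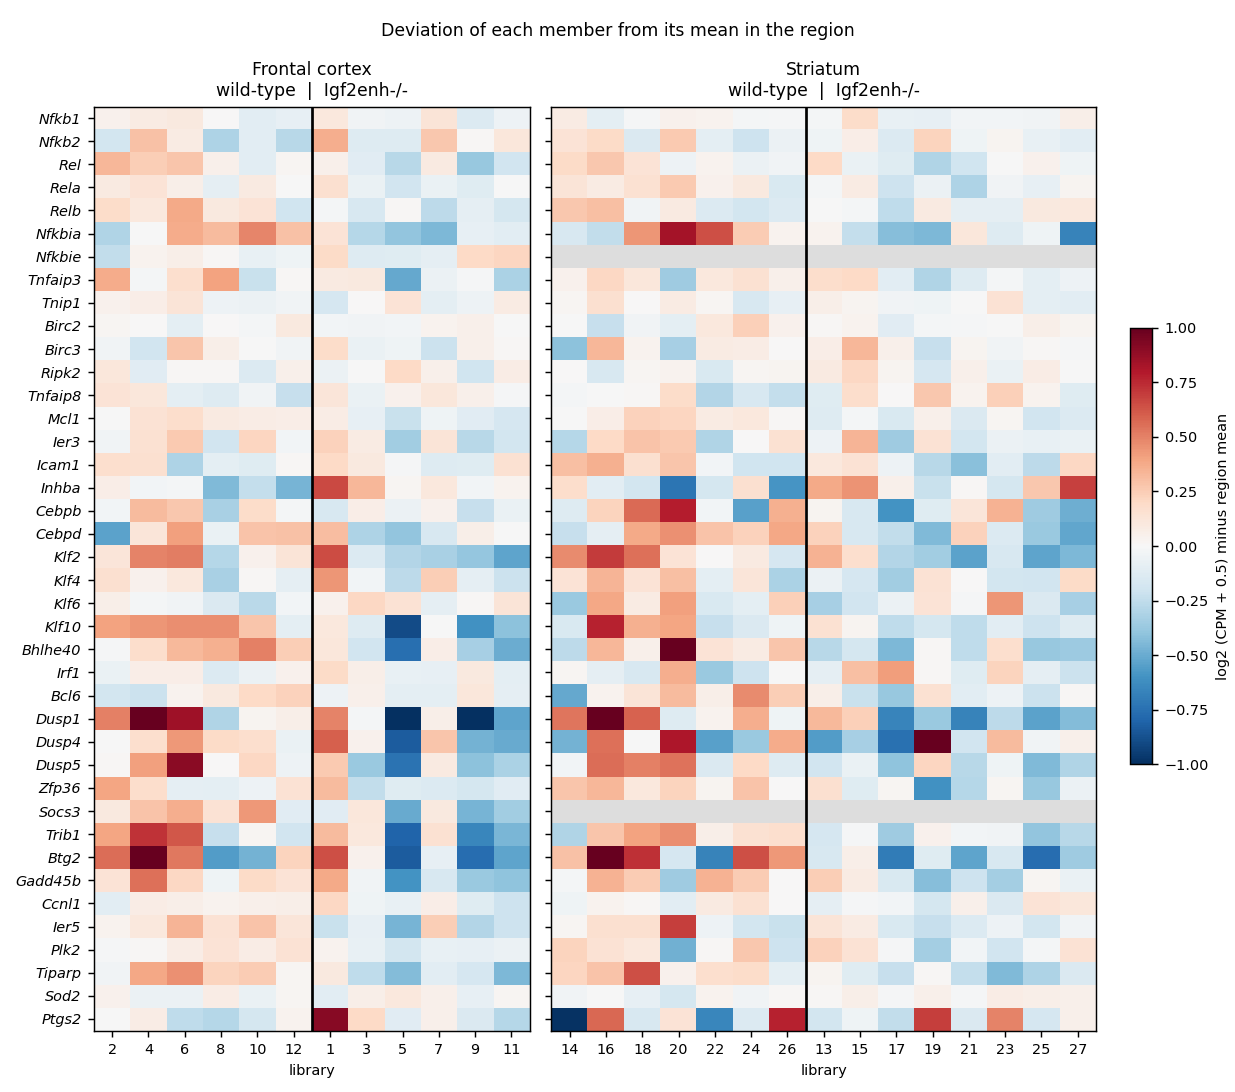
Deviation of each member (rows, ordered by role) from its mean in the region on the log2(CPM + 0.5) scale in each library (columns, wild-type left and Igf2enh-/- right of the black line), with grey rows for members not tested in striatum. Red columns such as wild-type library 16 and blue columns such as Igf2enh-/- library 5 show members high or low together, strong in Dusp1 and Btg2 and faint in Nfkb1, Birc2 and Sod2.

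Genes of neuronal activity were measured beside the members. A list of 12 neuronal immediate-early genes (Fos, Arc, Egr1 and others, none of them members) was lower in Igf2enh-/- mice for all 12 in both regions, where 49.6% and 49.8% of all genes were. Of these 12 genes, 8 and 7 had an unadjusted p under 0.05 (6.60% and 5.10% of all genes lower at that level) and 0 an adjusted p under 0.05 (edgeR). Their medians were -0.61 and -0.64 on the log2 scale. Their summed level was 1026 to 1595 CPM in wild-type and 459 to 1393 CPM in Igf2enh-/- frontal cortex, lowest in library 5, and 701 to 1409 and 591 to 1067 CPM in striatum, highest in library 16. The median deviation of these genes had the sign of the members' in every frontal cortex library and in every striatal library but 20, 22, 26 and 27. It was -1.18 in library 5 and 0.96 in library 16. In wild-type libraries 20, 22 and 26 it was -0.30, -0.09 and -0.24, where the members had 0.20, 0.02 and 0.0048. In Igf2enh-/- library 27 it was 0.33, where the members had -0.06. The genes of smallest p were Ier2 in frontal cortex (log2 fold change -0.62, adjusted p = 0.140 in edgeR) and Arc in striatum (-0.95, adjusted p = 0.207 in edgeR). Of 12 glucocorticoid-induced genes, 6 were lower and 6 higher in frontal cortex (median -0.09), and 11 lower and 1 higher in striatum (median -0.16). Lower with an unadjusted p under 0.05 in edgeR were 6 and 5 (6.60% and 5.10% of all genes), and higher 0 and 0. Those of smallest p were Sgk1 in frontal cortex (-0.55, adjusted p = 0.0581 in edgeR) and Ddit4 in striatum (-0.61, adjusted p = 0.209 in edgeR). Of 14 clock genes, 3 passed an adjusted p of 0.05 in edgeR in frontal cortex (Dbp, Ciart, Nr1d1), where 0.380% of all genes did. In striatum 1 did (Ciart), against 0.0360%. All were lower, and Ciart fell by 1.24 and 1.18 on the log2 scale. With an unadjusted p under 0.05 in edgeR, 9 were lower and 1 higher in frontal cortex, and 9 lower and 3 higher in striatum. Arntl was the higher one in frontal cortex (0.27), and Arntl, Clock and Npas2 were higher in striatum (0.37, 0.13 and 0.20). The part of neuronal activity, glucocorticoids or time of day in the members' differences was not tested.

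Markers of cell types, among them cells that make TNF and interleukin-1, were measured beside the members. Of all genes, 6.60% in frontal cortex and 5.10% in striatum were lower with an unadjusted p under 0.05 (edgeR), and 6.87% and 4.94% higher. The 15 microglial genes summed to 410 to 465 CPM in wild-type and 408 to 455 CPM in Igf2enh-/- frontal cortex, and to 444 to 569 and 472 to 560 CPM in striatum. Of them 5 had an unadjusted p under 0.05 and a higher level in frontal cortex (Aif1 first, 0.30, adjusted p = 0.136 in edgeR) and 1 a lower one, and P2ry12 was lower in striatum (-0.18, adjusted p = 0.353 in edgeR). Of 9 genes of perivascular and blood myeloid cells, S100a8, S100a9, Ccr2, Ly6c2, Plac8 and Ms4a7 had medians under 1 CPM in both regions, and the lead gene Cd163 had log2 fold changes of 0.26 and 0.18. Of 10 endothelial genes Itm2a fell by 0.26 in frontal cortex (adjusted p = 0.0448 in edgeR) and had -0.25 in striatum, while Cldn5 had 0.34 and 0.36, and in each region 3 of the 10 were lower and 1 higher with an unadjusted p under 0.05. Of 10 meningeal fibroblast genes, 9 were higher in Igf2enh-/- frontal cortex, 5 with an unadjusted p under 0.05, and their sum ran from 71.9 to 169 CPM and from 104 to 172 CPM, highest in library 1. Of the 3 red cell genes that were matched, all 3 had an unadjusted p under 0.05 and a higher level in frontal cortex, led by Alas2 (0.63, adjusted p = 0.160 in edgeR), with sums from 9.68 to 15.7 and from 13.7 to 20.2 CPM. Of 10 astrocyte and 10 neuron genes 0 had an unadjusted p under 0.05 in either region (edgeR). Of 10 choroid plexus genes 1 was tested in frontal cortex (Kl, 0.29) and 3 in striatum, where the summed level of the list was 29.7 to 69.5 CPM in wild-type libraries and 3492 CPM in library 15. The part of these cell types in the members' differences was not tested.

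The machinery upstream of NF-kB, a list of 38 receptors, adaptors, kinases and other IkB proteins, showed little difference. Of 34 tested in each region 0 passed an adjusted p of 0.05 in edgeR. In frontal cortex 1 was lower and 1 higher with an unadjusted p under 0.05, and in striatum 2 and 1, with medians of -0.0048 and -0.01. In frontal cortex these were Map3k14, the kinase of the noncanonical pathway (-0.39, SE 0.161), and Traf3, its negative regulator (0.12, SE 0.0507), followed by the adaptor Myd88 (0.22, SE 0.108, unadjusted p = 0.0569 in edgeR). In striatum they were Nfkbib (IkB-beta; -0.16, SE 0.0540), Nfkbiz (-0.30, SE 0.116) and the kinase Ikbke (0.27, SE 0.121).

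Members with and without the NF-kB consensus upstream are given side by side, which leaves out the 10 with no promoter in the table, Klf10, Bhlhe40 and Trib1 among them. Of the 12 with the consensus, 9 were tested in frontal cortex, where 2 (Rel, Nfkbia) had an unadjusted p under 0.05 and a lower level and the median log2 fold change was -0.03, while the members without the consensus had a median of -0.15, with 10 of 22 lower at that level. In striatum the consensus was held by 8 members tested, of which 2 (again Rel and Nfkbia) were lower, with a median of -0.06, beside -0.19 and 9 of 21 for those without. Of the 5 tested members with a CRE, all 5 were under 0 in each region, where 17 of 26 and 19 of 24 members without a CRE were. Of the 5, Birc2 was at -0.0023 and -0.0039. An unadjusted p under 0.05 in edgeR was found for 3 in frontal cortex (Dusp1, Btg2, Plk2) and 2 in striatum (Dusp1, Btg2). The medians of the members with a CRE were -0.14 and -0.04. Those without a CRE had -0.11 (9 of 26 lower at that level) and -0.17 (9 of 24). These are descriptions of letters in 250 bases, with few members in each set, and the difference between the sets was not tested.

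Most members differed between the regions, at a share close to that of all genes. In wild-type mice 26 of 38 members had an adjusted p under 0.05 for striatum against frontal cortex (edgeR, 27 libraries in 1 fit, treated as independent mice), where 67.7% of the 13414 genes tested did. An unadjusted p under 0.05 was found for 27 (70.2% of all genes). Of the 26, 18 were lower in striatum (33.2% of all genes) and 8 higher (34.5%). The 4 of largest fold change among those lower were Ptgs2, with 15.4 ± 1.70 CPM (SD, n = 6) in frontal cortex and 3.11 ± 1.53 CPM (SD, n = 7) in striatum, Dusp4 (12.2 ± 1.57 and 3.61 ± 1.55 CPM), Bhlhe40 (209 ± 25.0 and 64.9 ± 22.6 CPM) and Trib1 (34.3 ± 9.92 and 13.1 ± 2.27 CPM). Ranges of the regions did not overlap for any of these 4. They were picked by fold change, and the share of all genes without overlap between regions was not counted. Their log2 differences were -2.30, -1.78, -1.71 and -1.36, with SEs of 0.2503, 0.292, 0.156 and 0.177.

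The 4 of largest fold change among those higher in striatum were Inhba (25.9 ± 4.10 and 44.2 ± 10.1 CPM), Ccnl1 (41.9 ± 1.84 and 64.3 ± 3.78 CPM), Tiparp (21.7 ± 2.94 and 28.5 ± 4.94 CPM) and Nfkb2 (2.29 ± 0.470 and 2.96 ± 0.438 CPM). Of these Ccnl1 alone had regions that did not overlap, again without a share of all genes to set beside it. Log2 differences were 0.80, 0.62, 0.40 and 0.37, with SEs of 0.142, 0.0601, 0.102 and 0.123. Among the subunits Nfkb1 and Rela were higher in striatum by 0.23 and 0.18, Relb was lower by a log2 difference of -0.29, and Rel had 0.17 (adjusted p = 0.0595 in edgeR). In Igf2enh-/- mice 27 of 38 members passed (68.9% of all genes), 20 lower (34.5%) and 7 higher (34.5%), and 28 had an unadjusted p under 0.05 (71.1%). No difference of the genotype effect between regions was detected. For the region by genotype term 0 of 38 members had an adjusted p under 0.05 (0% of all genes) and 0 an unadjusted p under 0.05 (3.02% of all genes), and the likelihood ratio test and DESeq2 called 0. The member of smallest p was Klf6, with a log2 difference of -0.29 (95% interval -0.63 to 0.06, adjusted p = 1.00 in edgeR).

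**Figure D5:**
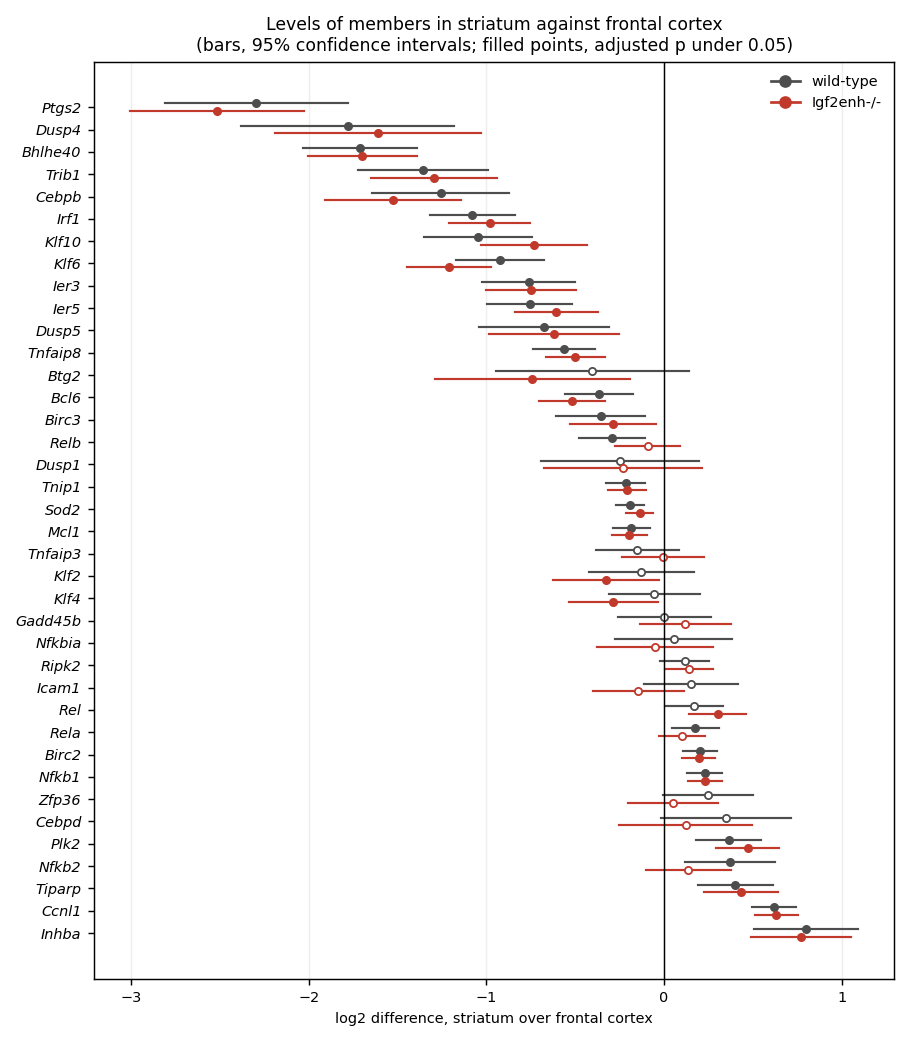
Log2 difference of striatum over frontal cortex (x axis) for the 38 members tested in both regions, wild-type in grey and Igf2enh-/- in red, with 95% confidence intervals as bars and filled points for an adjusted p under 0.05. Ptgs2, Dusp4, Bhlhe40 and Trib1 lie at the lower end, Inhba and Ccnl1 at the upper, and the intervals of the genotypes overlap for every member.

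Sex was the covariate of the fits. Of the members 0 had an adjusted p under 0.05 for sex in frontal cortex (0.0431% of all genes) and 0 in striatum (0.0432%), where the likelihood ratio test called 1 (0.201% of all genes in frontal cortex) and 0. With no filter 5 were called in frontal cortex (0.560%) and without library 5 there was 1 (0.0573%). An unadjusted p under 0.05 was found for 7 of 40 in frontal cortex (7.56% of all genes), 6 of them lower in males (Btg2, Klf2, Klf6, Inhba, Trib1, Dusp1) with Bcl6 higher, and for 5 of 38 in striatum (10.8%), 4 of them lower in males (Klf2, Rel, Plk2, Dusp1) with Bcl6 higher. The members of smallest p were Inhba in frontal cortex, with 33.1 ± 7.01 CPM in 6 females and 25.9 ± 4.45 CPM in 6 males (log2 fold change, male over female, -0.36, adjusted p = 0.361 in edgeR), and Klf2 in striatum, with 6.97 ± 2.13 CPM in 7 females and 5.08 ± 0.9497 CPM in 8 males (-0.47, adjusted p = 0.448 in edgeR). For the sex by genotype term 0 members had an adjusted p under 0.05 in frontal cortex (0.0215% of all genes, and 3 members with no filter, where 0.938% of genes passed) or striatum (0%), and 1 in each region an unadjusted p under 0.05 (6.36% and 2.56% of all genes). These were Bcl6 in frontal cortex (-0.29, adjusted p = 0.764 in edgeR) and Klf4 in striatum (0.45, adjusted p = 1.00 in edgeR).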

How the data were processed

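Total RNA depleted of ribosomal RNA was sequenced as 75 bp single-end reads. After trimming (Trim Galore 0.5.0) and alignment to GRCm38 with STAR and GENCODE vM15, the authors deposited raw read counts per gene. The strand setting of the counting is not given in the sources used here. The tables held 0 columns that were not used. Genes reaching 1 CPM or more in all libraries of a region entered the tests, made in R 4.3.3 with edgeR 4.0.16 (TMM, quasi-likelihood F-test, genotype and sex, Benjamini-Hochberg over all genes); the study's methods name the likelihood ratio test, run here as an alternative. Region terms came from 1 fit of all 27 libraries, treated as independent mice, and sex terms from the fit of each region. Single members were also tested with two-sided exact permutation of log2 CPM over 924 or 6435 splits, unadjusted, whose smallest p are 0.00216 and 0.000311. Alternatives used DESeq2 1.42.0 and limma 3.58.1, other scalings and filters, a fit without sex or with the RNA integrity number from the study's supplement, and each library left out. P-values measure the spread between libraries. On simulated counts changed by 0.4 on the log2 scale, 73 of 100 genes were recovered in frontal cortex and 62 in striatum. Of 100 changed by 0.8, 99 and 92 were recovered. Both sizes were planted in the same simulated set, whereas in the data 0.380% of genes in frontal cortex and 0.0360% in striatum were called. The adjusted p is stricter where fewer genes change, so these shares do not give the recovery in the data. Striatal Tiparp, at a log2 fold change of -0.41, had an adjusted p of 0.135 in edgeR. SEs of the members ran from 0.03 (Birc2) to 0.25 (Dusp1) in frontal cortex and from 0.03 (Sod2) to 0.30 (Dusp4) in striatum. Recovery at the spread of each member was not tested.

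Members and lists were chosen with earlier results of these data known. All members may be named; values per library are given for the 10 of smallest p in each region, the 5 subunits, Nfkbia and Tnfaip3, and those of largest region difference, and other lists by the genes of smallest p. Exons of 8 members overlap another gene on the other strand. Positions and upstream sequences are from RefSeq tables of GRCm38.p6, and exon overlaps from GENCODE vM1.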

Additional observations from a re-analysis of the deposited data

Results flagged for a closer look

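A single library lay far from the others of its group for 2 of 64 groups of libraries examined, and about 1 in 20 groups would be picked by chance. Klf10 in wild-type frontal cortex was lowest in library 12, at 36.8 CPM where the next library held 47.9 CPM, a gap of 0.660 of the group's range on the log2(CPM + 0.5) scale (6 libraries). Tnfaip3 in wild-type striatum was lowest in library 20, at 4.88 CPM where the next held 6.57 CPM, a gap of 0.710 of the range (7 libraries). The same library held the highest Bhlhe40, Nfkbia and Slc17a7 of its group.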

How the results depend on the processing

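No paired analysis was possible because each library carries a number of its own and the groups share none. The count of members called for genotype in frontal cortex was 0 and became 6 with edgeR's likelihood ratio test (1.66% of all genes), 6 with DESeq2 (1.77%) and 14 with no filter (1.39%), and 0 to 9 when libraries were left out, 9 without library 1 (0.709%). In striatum it became 3 with the likelihood ratio test (0.404%) and 4 with DESeq2 (0.807%). The count for sex in frontal cortex became 1 with the likelihood ratio test, 5 with no filter and 0 to 1 when libraries were left out, and for sex by genotype 3 with no filter. The cause was not tested. Counts of members lower with an unadjusted p under 0.05 ran from 13 to 18 in frontal cortex and from 13 to 16 in striatum under the other settings, and from 13 to 20 and 12 to 16 when libraries were left out. Medians were -0.18 to -0.11 and -0.19 to -0.13 when libraries were left out, and -0.08 in frontal cortex with no filter. Nfkb1 crossed 0 when libraries were left out, with values from -0.0527 to 0.0090 in frontal cortex and from -0.0335 to 0.0031 in striatum, where it was 0.0006 with the RNA integrity number added, as did striatal Nfkb2 (-0.08 to 0.0236). Of the 18 members with an unadjusted edgeR p under 0.05 in frontal cortex, 8 had a p above 0.05 by the exact Wilcoxon-Mann-Whitney test (Rel, Klf6, Dusp1 and Gadd45b with p = 0.0649, and Klf2, Dusp5, Trib1 and Btg2, up to 0.240), and 4 by exact permutation (up to 0.186). In striatum this was so for 4 of 17 (Rel, Inhba, Klf10, Gadd45b, up to 0.189) and 3 (up to 0.100). Depth limits Tnf, Il6, Il1b, Ccl2 and Cxcl1, each with at most 12 counts per library.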
